A study of Homo sapiens with 11 samples.

Results

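The change of RNA levels with TRIM58-WT in the lung adenocarcinoma (LADC) cell line A549 was compared with the change in the LADC cell line HCC827, probe by probe, on all 11 arrays of the series. For each probe, the difference between the lines was the change in A549 (TRIM58-WT minus mock) minus the change in HCC827 (TRIM58-WT minus mock), so that a value above 0 stands for a higher change in A549. Levels are log2 signals after subtraction of each array's 75th percentile, and a difference of 1 is a factor of 2. A probe entered if at least 1 of the 4 groups had all of its arrays well above background at that probe, which held for 20641 of the 42405 probes (48.7%). They represent 12855 of the 20249 genes named on the array.

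Tripartite motif proteins such as TRIM58 attach ubiquitin to other proteins, which can send those to the proteasome. TRIM58 is best known from red cell precursors, where it takes part in the loss of the nucleus. A549 carries inactive KEAP1, which leaves the oxidative stress factor NRF2 switched on, whereas HCC827 carries an activating EGFR mutation.

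Both lines were infected with the retroviral vector pMXs-Neo and selected with G418. The mock cells carried the empty vector, and the TRIM58-WT cells carried the full wild-type coding sequence of human TRIM58 with a FLAG tag. A549 had 3 mock replicates, the first of them the mean of 2 arrays of the same cells, and 3 TRIM58-WT replicates. HCC827 had 2 mock and 2 TRIM58-WT replicates. The study calls its A549 transfectants clones and HCC827 transfectants crude, while the labels only number the cells of each group. An A549 replicate may thus be 1 clone, and with so few of them differences between clones cannot be told apart from those between groups. P-values measure the spread between these samples only, which may in part be technical.

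Several arrays stood apart before any gene was tested. Between 40.07% and 49.99% of all probes were well above background on each array. The share was 40.52% on A549 mock 3, 40.07% on TRIM58-WT 2 and 40.44% on TRIM58-WT 3, and at least 42.78% elsewhere. The 75th percentile of the signal was 60.29, 62.48 and 56.58 on these arrays and between 90.49 and 125.4 on the others. Its part in the likeness of arrays was not tested. TRIM58-WT replicates 2 and 3 of A549 differed by an SD of 0.344 over all probes tested, less than the 0.352 between both arrays of mock replicate 1, while each differed from TRIM58-WT replicate 1 by 0.942 and 0.905. The array labelled A549 mock 3 differed by 0.774 and 0.763 from TRIM58-WT replicates 2 and 3 and by 0.803 and 0.905 from the other mock replicates. It also carried the single TRIM58 signal above background, at -0.71, whereas the TRIM58 probe lay between -5.64 and -4.63 on the other 10 arrays, TRIM58-WT arrays of both lines included. The position of that probe relative to the coding sequence in the vector was not analysed, so the probe does not check the labels. All HCC827 arrays and A549 mock 1 (first array), mock 2 and TRIM58-WT 1 lay on 1 slide, and the other A549 arrays on a second. None of 9 endothelial markers was above background on any array, and of 9 fibroblast markers LUM was, on 3 of the 4 A549 mock arrays. Of 9 markers of an epithelial LADC line, 9 were above background in HCC827, 7 in A549 mock and 6 in A549 TRIM58-WT cells. Those absent from every A549 array were NKX2-1, the lung lineage factor, and SFTPB, a surfactant protein.

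The difference between the lines passed the test (limma, Benjamini-Hochberg adjusted p under 0.05) for 796 probes, 3.86% of those tested. It was above 0 for 377 probes (1.83%) and below 0 for 419 (2.03%), so that 47.4% of the calls were above 0. The 796 probes stand for 672 genes, and no gene had called probes of both signs. More than 1 probe was tested for 186 of the 672 genes, and 156 of these (83.9%) also had a probe that was not called. Shifting each array by its median in place of its 75th percentile moved the median difference of all probes from 0.0561 to -0.343, and 27.9% of the 527 calls were then above 0. In the fit with the 75th percentile, 2636 probes were called in A549 (12.8%) and 164 in HCC827 (0.795%). The standard error of the change was 0.25 in A549 and 0.306 in HCC827 at the median, so a change of one size was called less easily in HCC827. Mock and TRIM58-WT replicates did not overlap for 28.1% of all probes tested in A549 and for 55.6% in HCC827, where each group has 2 replicates. Of the 796 probes, 605 were called in A549 alone, 103 in HCC827 alone, 15 in both lines in opposite directions, 2 in both lines in the same direction, and 71 in neither line on its own. The count varied with single replicates: it was 208 without HCC827 mock 1 and 2087 without the array labelled A549 mock 3, and 426 probes were called with A549 TRIM58-WT 2 and 3 averaged to 1 replicate. All 796 probes were called without A549 mock 3, and 421 were called with the averaged replicates. All 796 had the same sign on the slide that holds all 4 groups. That slide's arrays are among those that chose the probes, so the agreement is no separate support.

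**Figure D1:**
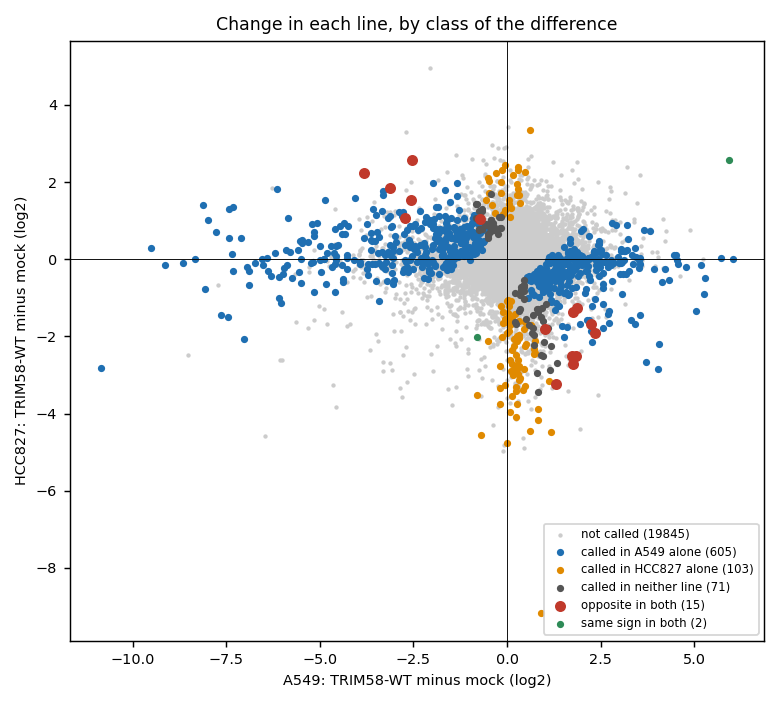
Change with TRIM58-WT in A549 (horizontal axis) and in HCC827 (vertical axis), both as log2 differences from mock, for the 20641 probes tested. Colours give the class of the 796 probes called for the difference, and grey points were not called. The 605 probes called in A549 alone spread along the horizontal axis and the 103 called in HCC827 alone along the vertical axis, while the 15 opposite probes lie in the upper left and lower right of the plot.

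The 137 probes that met the rule for named genes by their test were also followed through 10 fits, each without 1 replicate. Of these, 52 were called in all 10 fits and with the averaged replicates, among them all 13 named genes that were called in both lines in opposite directions. The other 85 lost the call in at least 1 of the 10, and for most of them the number of such fits is given beside the values.

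Of the 15 probes with opposite changes, 13 have a gene symbol. Of these, 6 fell in A549 and rose in HCC827, and their roles range from adhesion and proteolysis to signalling lipids. ITGB4, the integrin chain that pairs with the alpha 6 chain to bind laminin in hemidesmosomes, was well above background on all arrays. Its log2 levels were 5.39, 5.56 and 5.61 in the A549 mock replicates and 2.86, 2.71 and 2.86 with TRIM58-WT, and 2.67 and 2.34 against 3.63 and 3.51 in HCC827. The change was -2.71 (SE 0.15, adjusted p = 3.65e-05) in A549 and 1.07 (SE 0.18, adjusted p = 0.0456) in HCC827. The difference was -3.78 (SE 0.24, adjusted p = 0.000194). ITGA6, the gene of the alpha 6 chain, was called in A549 alone, at -1.23 (SE 0.22) against 0.56 (SE 0.27) in HCC827, with a difference of -1.79 (SE 0.35, adjusted p = 0.0296) that lost its call in 7 of the 10 fits (highest adjusted p 0.123).

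PLAU encodes urokinase, the protease that activates plasminogen, and was measured by 2 probes that were called for the difference. The first read 0.74, 0.68 and 0.95 in A549 mock and 0.19, 0.026 and -0.039 in A549 TRIM58-WT cells, and 1.74 and 1.92 and 2.94 and 2.79 in HCC827. It fell in A549, at -0.73 (SE 0.15, adjusted p = 0.0149), and rose in HCC827, at 1.03 (SE 0.18, adjusted p = 0.0484). The second probe had estimates of -0.75 and 1.05, passed the test in neither line alone and had a difference of -1.8 (SE 0.34, adjusted p = 0.0271), against -1.77 (SE 0.23, adjusted p = 0.00648) for the first. The call of the second probe was lost in 8 of the 10 fits without 1 replicate. It was also lost with A549 TRIM58-WT 2 and 3 averaged (limma adjusted p = 0.0698), so the probes of this gene differ in how firm their calls are.

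CELF2, an RNA-binding regulator of splicing, and PTGS1, the constitutive cyclooxygenase of prostaglandin synthesis, were above background in A549 mock cells and on no A549 TRIM58-WT array. CELF2 read -1.47, -1.48 and -2.33 in A549 mock and -1.27 and -1.47 in HCC827 mock cells, where it reached 0.44 and 0.50 with TRIM58-WT. PTGS1 read -2.21, -2.32 and -2.31 in A549 mock and -2.04 and -1.97 in HCC827 mock cells, and -0.30 and -0.61 in HCC827 TRIM58-WT cells. The mean mock level of both was thus within 1 log2 unit between the lines and separated with TRIM58-WT, with differences of -4.98 (SE 0.39, adjusted p = 0.00065) and -4.13 (SE 0.23, adjusted p = 0.000101). PTGS1 was at least 1.28-fold lower in A549 TRIM58-WT than in mock cells, a bound set by the dimmest signals that counted as above background; CELF2 was above background on 3 of the 4 A549 mock arrays and gave no bound.

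CCK, a peptide hormone of gut and brain, and TFCP2L1, a transcription factor of epithelial and early embryonic cells, went from detected to not detected in A549 and the other way in HCC827. CCK read -0.49, -0.36 and -1.48 in A549 mock cells and was at least 3.6-fold lower with TRIM58-WT. In HCC827 it read -5.2 and -5.16 in mock cells, below background, and -2.69 and -3.18 with TRIM58-WT, above background on 1 of 2 arrays. TFCP2L1 was at least 1.98-fold lower with TRIM58-WT in A549 and at least 1.87-fold higher in HCC827. The differences were -6.07 (SE 0.46, adjusted p = 0.000563) and -5.11 (SE 0.36, adjusted p = 0.000374), and the second lost its call (adjusted p = 0.104 for TFCP2L1) after normexp background correction.

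The other 7 named genes rose in A549 and fell in HCC827. CTSC, the lysosomal protease cathepsin C, went from 1.63, 1.55 and 1.83 to 3.64, 3.3 and 3.35 in A549 and from 4.08 and 4.1 to 2.81 and 2.64 in HCC827. The A549 change was 1.76 (SE 0.15, adjusted p = 0.000402) and the HCC827 change -1.36 (SE 0.19, adjusted p = 0.0218). Its mock level was lower in A549 and its TRIM58-WT level lower in HCC827, so the order of the lines turned, and the difference was 3.13 (SE 0.24, adjusted p = 0.00065). SMARCD3, a subunit of the SWI/SNF chromatin remodelling complex, went from 2.81, 2.87 and 3.18 to 4.7, 4.87 and 4.88 in A549. In HCC827 it went from 0.12 and -0.20 to -1.48 and -1.14, and the difference was 3.14 (SE 0.28, adjusted p = 0.00105).

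TWIST1, a transcription factor that drives mesenchymal programs, read -2.37, -3.42 and -1.73 in A549 mock and -0.76, -0.82 and -0.67 in A549 TRIM58-WT cells. In HCC827 it read -2.16 and -2.35 in mock cells and was above background on neither TRIM58-WT array, which put it at least 2.17-fold lower. Its difference was 4.47 (SE 0.59, adjusted p = 0.00648). GNB4, a G protein beta subunit, followed the same course, from 0.56, 0.69 and 1.71 to 1.91, 2.46 and 2.49 in A549, and was at least 2.42-fold lower with TRIM58-WT in HCC827, with a difference of 4.54 (SE 0.50, adjusted p = 0.00318). ARHGEF25, a guanine nucleotide exchange factor, was above background only in A549 TRIM58-WT and HCC827 mock cells. It was at least 3.54-fold higher with TRIM58-WT in A549 and at least 4.36-fold lower in HCC827, a difference of 4.37 (SE 0.29, adjusted p = 0.000322). TCEA3, a transcription elongation factor, was at least 1.96-fold higher with TRIM58-WT in A549, and in HCC827 it went from -0.38 and -0.36 to -3.4 and -2.33, with a difference of 4.24 (SE 0.51, adjusted p = 0.00436). HLA-DRB4, a chain of an antigen-presenting class II molecule that shares sequence with other HLA-DRB genes, was above background in HCC827 mock cells alone, where it was at least 2.02-fold higher than with TRIM58-WT. Its A549 values lay below background in both groups, so its rise there is not a measured level, and this gene was named after its values were seen.

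**Figure D2:**
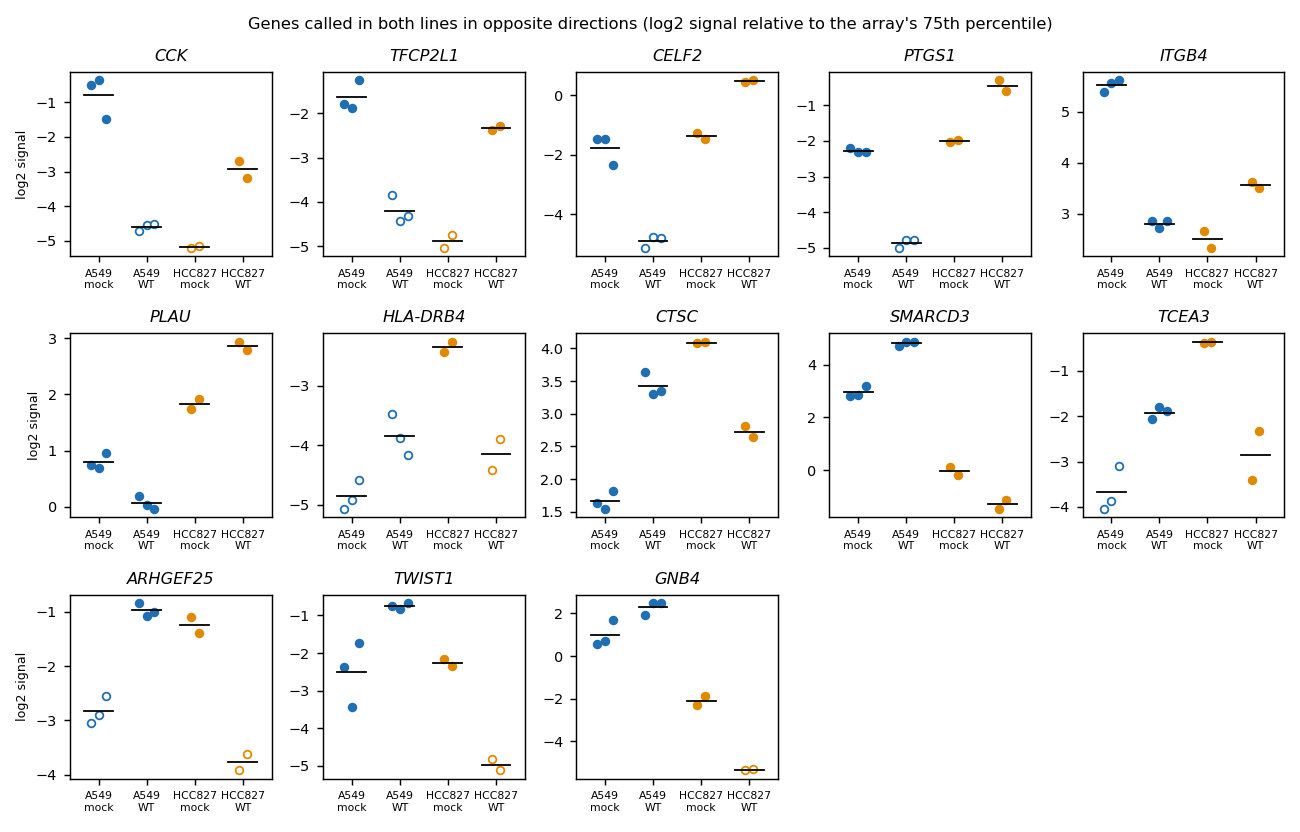
Log2 signal relative to the 75th percentile of the array for the 13 named genes called in both lines in opposite directions, by group; each point is a replicate, the line is the group mean, and open points mark groups with no array well above background. The first 6 panels fell in A549 and rose in HCC827, and the last 7 did the reverse. Mock and TRIM58-WT replicates overlap in neither line in any panel, which the choice of genes called in both lines nearly ensures. Of all probes tested, 28.1% did not overlap in A549 and 55.6% in HCC827. The A549 values of HLA-DRB4 lie below background in both groups.

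These 13 calls were kept in each fit without 1 replicate, but the sorting into the opposite class needs a call in each line as well. Of the 15 probes, 3 stayed in that class without A549 TRIM58-WT 3 and 4 without A549 mock 1. It kept 5 without A549 mock 2, 5 without TRIM58-WT 2, and 15 without A549 mock 3 or TRIM58-WT 1. A filter for 1 array above background in every group held 6 of the 15, and none stayed in the class. With A549 TRIM58-WT 2 and 3 averaged, all 15 probes were called for the difference and 4 were also called in both lines. After normexp background correction, which draws dim signals together, 4 of the 15 likewise stayed in the class, and HLA-DRB4 lost the call of its difference (adjusted p = 0.221). ITGB4, PLAU, CTSC and SMARCD3, which were above background in all 4 groups, then had differences of -3.53, -1.3, 2.62 and 2.14. The other 9 had a group below background, and all 9 differences were smaller by more than 1.5 times, at -1.06 for CCK, -0.60 for TFCP2L1, -1.64 for CELF2, -0.86 for PTGS1, 0.47 for HLA-DRB4, 1.32 for TCEA3, 1.11 for ARHGEF25, 1.0 for TWIST1 and 1.35 for GNB4. Their sign was kept, and their size depends on how dim signals are treated.

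Promoter sequences of 1 gene of each direction are shown because the pair was above background in all 4 groups and moved in opposite directions. They are RefSeq sequences of assembly GRCh38.p14, from 250 bases before to 50 after the annotated start, read 5′ to 3′ on the gene's strand, with capitals marking GGGCGG on either strand. CTSC has 1 window on the minus strand, chr11:88337687-88337986, and PLAU has 2 on the plus strand, chr10:73910360-73910659 and chr10:73910882-73911181.
CTSC: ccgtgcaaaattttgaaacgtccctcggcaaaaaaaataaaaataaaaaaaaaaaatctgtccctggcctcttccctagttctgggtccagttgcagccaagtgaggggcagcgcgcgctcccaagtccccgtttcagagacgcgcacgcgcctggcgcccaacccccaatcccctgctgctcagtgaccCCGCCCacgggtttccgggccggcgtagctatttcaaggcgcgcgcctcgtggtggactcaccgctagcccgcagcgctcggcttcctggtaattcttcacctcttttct
PLAU, first window: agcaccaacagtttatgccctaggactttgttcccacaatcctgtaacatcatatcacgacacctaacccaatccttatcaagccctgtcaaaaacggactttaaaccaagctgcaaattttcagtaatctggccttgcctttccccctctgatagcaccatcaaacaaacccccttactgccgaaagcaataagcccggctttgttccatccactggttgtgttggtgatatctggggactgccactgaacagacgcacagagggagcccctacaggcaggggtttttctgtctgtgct
PLAU, second window: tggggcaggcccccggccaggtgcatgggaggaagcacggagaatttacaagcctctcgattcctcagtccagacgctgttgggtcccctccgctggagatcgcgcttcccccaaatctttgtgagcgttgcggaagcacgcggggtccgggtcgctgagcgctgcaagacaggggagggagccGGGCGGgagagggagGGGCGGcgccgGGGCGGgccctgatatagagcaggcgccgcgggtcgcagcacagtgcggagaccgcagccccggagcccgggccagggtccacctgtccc
The motif GGGCGG, which Sp1 family factors bind, stood in the CTSC window and 3 times in the second PLAU window, and it was in 45% of all 35116 windows of this length. The motif CANNTG, bound by TWIST1 and related factors, was in both of these windows and in 68.7% of all windows. These matches describe the letters alone. TATAAA, held by 4049 of all windows, was in none of the 3, and TGANTCA, held by 7.71%, was also in none of them.

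Of the 605 probes called in A549 alone, 354 fell and 251 rose. Among them, 139 were above background on no HCC827 array, so for these the gene had no measured level in HCC827 that could change. For 244 of the 605, the 95% interval of the HCC827 change lay within 1 of 0, and for 449 the HCC827 estimate had the opposite sign to the A549 change. A choice by the difference favours opposite signs, so the 449 are no support for opposite responses. Epithelial genes stood among the decreases. Keratins are the intermediate filaments of epithelial cells. Of 11 keratin genes tested, 4 were called for the difference (36.4%, against 4.63% of all genes tested), 3 of them in A549 alone. KRT19 read 7.3, 7.52 and 6.11 in A549 mock cells and was above background on no TRIM58-WT array, at least 723-fold lower. In HCC827 the levels were 8.8 and 8.8 and 9.02 and 9.16, a change of 0.29 (SE 0.40) with a 95% interval from -0.63 to 1.21. The difference was -9.79 (SE 0.52, adjusted p = 8.29e-05) and was called in all 10 fits without 1 replicate.

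KRT6A, a keratin of stressed and stratified epithelium, was at least 62.8-fold lower with TRIM58-WT in A549. There A549 mock 3 read 0.99 against 4.41 and 4.63 in the other mock replicates. KRT6A was below background in HCC827 and passed the detection filter through A549 mock cells alone. KRT8, a main keratin of simple epithelia, was at 7.82, 7.84 and 7.71 against 6.94, 6.05 and 6.26 in A549 and 5.21 and 5.07 against 5.74 and 5.76 in HCC827, a difference of -1.98 (SE 0.35, adjusted p = 0.0215). The KRT6A difference of -7.48 (SE 1.36, adjusted p = 0.0236) lost its call in 8 of the 10 fits (highest adjusted p 0.117) and that of KRT8 in 7 of the 10 fits (highest adjusted p 0.0914).

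Many genes of epithelial junctions fell in A549. Of 38 such genes tested, 8 were called for the difference (21.1%, against 4.63% of all genes tested), all below 0. In the A549 change, 18 fell and 1 rose, and in HCC827 none was called. Over all 12855 genes tested, 1020 fell and 935 rose in A549, and 80 fell and 43 rose in HCC827. The median difference of the list was -1.4, against 0.0242 over all genes tested, and -1.64 without A549 mock 3, when 19 of the 38 and 12% of all genes were called. With A549 TRIM58-WT 2 and 3 averaged, 5 were called.

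CGN, the tight junction protein cingulin, read 1.72, 2.12 and 1.23 in A549 mock cells, was at least 19.9-fold lower with TRIM58-WT, and read 4.02 and 4.05 and 4.65 and 4.34 in HCC827. Its difference was -5.76 (SE 0.51, adjusted p = 0.0011), called in every fit without 1 replicate. JUP, plakoglobin of desmosomes and adherens junctions, went from 4.79, 4.88 and 3.87 to 1.09, -0.85 and -0.61 in A549 and read 4.1 and 3.99 and 4.27 and 4.14 in HCC827, with a difference of -4.8 (SE 0.78, adjusted p = 0.0159). In both genes the HCC827 groups lay within 1 log2 unit of each other while the A549 groups were several units apart. EPCAM, an adhesion molecule used to mark carcinoma cells, went from 2.72, 2.78 and 0.59 to -2.0, -3.45 and -3.08 in A549, where it was above background on 1 TRIM58-WT array, and read between 6.19 and 6.4 in HCC827. Its difference of -4.89 (SE 0.95, adjusted p = 0.0291) lost its call in 8 of the 10 fits (highest adjusted p 0.127) and with the averaged replicates (adjusted p = 0.0741). CEACAM6, an adhesion molecule of the carcinoembryonic antigen family, was at least 493-fold lower with TRIM58-WT in A549, and its HCC827 change of -2.83 (SE 0.92) was not called. The difference was -8.01 (SE 1.19, adjusted p = 0.0109), lost without HCC827 mock 1 and without HCC827 mock 2 (highest adjusted p 0.0555). PKP2, a desmosomal plaque protein, had a difference of -1.91 (SE 0.35, adjusted p = 0.0238), which lost its call in 7 of the 10 fits (highest adjusted p 0.117).

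Regulators of epithelium and other epithelial genes formed a second list, with 7 of 28 called (25%, against 4.63% of all genes), all below 0. MAL2, a membrane protein of apical transport in polarized cells, read 3.38, 3.49 and 1.1 in A549 mock cells, at least 39.1-fold more than with TRIM58-WT, and had a difference of -7.98 (SE 0.88, adjusted p = 0.00322). A549 mock 3 had the lowest MAL2 level of the mock replicates. ERBB3, the receptor that pairs with ERBB2, was at least 8.01-fold lower with TRIM58-WT in A549, with an estimate of 0.0041 (SE 0.71) in HCC827. KLF4, a transcription factor of epithelial differentiation, had estimates of -2.46 (SE 0.46) in A549 and 0.92 (SE 0.56) in HCC827. The differences of ERBB3 (-4.89) and KLF4 (-3.38) each lost their call in 8 of the 10 fits.

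Mucins and secreted epithelial proteins were another such list. Of 20 tested, 5 were called (25%, against 4.63% of all genes), all below 0. In A549 14 fell, while none was called in HCC827. The list's median level was 1.95, 2.31 and 0.30 in the A549 mock replicates and -1.44, -3.1 and -3.26 in the TRIM58-WT replicates, against -2.69 to -2.53 on the HCC827 arrays. S100P, a calcium-binding protein, read 9.56, 9.59 and 8.39 in A549 mock and 2.93, 1.24 and 1.0 in A549 TRIM58-WT cells. Its difference was -5.96 (SE 0.92, adjusted p = 0.0128), lost in 3 of the 10 fits (highest adjusted p 0.0719). TFF1, a secreted trefoil peptide, went from 4.79, 4.88 and 3.03 to -2.01, -1.41 and -1.55 in A549, was below background in HCC827 and had a difference of -5.74 (SE 0.73, adjusted p = 0.00567). SPDEF, a transcription factor of secretory cells, had a difference of -3.11 (SE 0.45, adjusted p = 0.00957), lost without HCC827 mock 1 (adjusted p = 0.0562). MUC13, a cell-surface mucin, and ZG16B, a secreted lectin-like protein, had differences of -6.08 (SE 1.14, adjusted p = 0.0253) and -4.67 (SE 0.86, adjusted p = 0.0239), and each was lost in 8 fits. MUC13 was below background on all HCC827 arrays.

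The next list held enzymes of detoxification, many of them NRF2 targets. Of 46 tested, 8 were called (17.4%, against 4.63% of all genes), all below 0. In A549 17 fell, and none was called in HCC827. GPX2, a glutathione peroxidase, went from 7.03, 7.16 and 5.68 to 0.12, -2.23 and -2.25 in A549, a change of -8.07 (SE 0.66, adjusted p = 0.00026). In HCC827 it read -0.69 and -0.51 and -1.62 and -1.1, and the difference of -7.32 (SE 1.04, adjusted p = 0.00898) was lost without HCC827 mock 1 (adjusted p = 0.0555). ALDH3A1, an aldehyde dehydrogenase, went from 6.98, 6.85 and 6.58 to 3.48, 2.25 and 2.4 in A549 and was below background in HCC827. CYP4F11, a cytochrome P450 of fatty acid oxidation, was at least 15.6-fold lower in A549 and also below background in HCC827. Their differences were -4.08 (SE 0.48, adjusted p = 0.00423) and -5.58 (SE 0.51, adjusted p = 0.00134), and both were called in all 10 fits. CYP4F11 passed the detection filter through A549 mock cells alone, so neither its p-value nor the 10 fits are support for a response of 1 line. AKR1C1 and AKR1C4 are related aldo-keto reductases, and whether their probes share signal was not tested. AKR1C1 changed by -2.05 (SE 0.34) and AKR1C4 by -2.38 (SE 0.36) in A549. Their differences of -2.97 (SE 0.54, adjusted p = 0.023) and -3.13 (SE 0.57, adjusted p = 0.0239) were each lost in 8 fits. As 9 of the 46 genes were above background on no HCC827 array, part of this list had no level in that line.

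Of 34 genes of cholesterol and fatty acid synthesis, 3 were called (8.82%, against 4.63% of all genes), all below 0. HMGCS1, an early enzyme of cholesterol synthesis, and STARD4, a sterol carrier, had differences of -3.37 (SE 0.64, adjusted p = 0.0271) and -3.6 (SE 0.70, adjusted p = 0.0295), lost in 8 of the 10 fits (highest adjusted p 0.125) and 6 of the 10 fits (highest adjusted p 0.118). Single genes of vesicle transport, for which no list was made, also fell in A549 alone. VAMP8, a SNARE protein of vesicle fusion, went from 6.25, 6.34 and 5.12 to -0.24, -1.62 and -1.28 in A549 and read 6.75 and 6.95 and 6.67 and 6.61 in HCC827. SYT13, of the synaptotagmin family, went from 4.68, 4.75 and 4.56 to -1.07, -2.18 and -2.42 in A549 and read -1.45 and -1.71 and -1.97 and -1.18 in HCC827. Differences of -6.75 (SE 0.65, adjusted p = 0.0018) and -6.56 (SE 0.56, adjusted p = 0.000933) were called in all 10 fits. FGB, the fibrinogen beta chain, and RBP4, the retinol carrier of plasma, had differences of -6.12 (SE 0.80, adjusted p = 0.00648) and -3.93 (SE 0.28, adjusted p = 0.000446), the only 2 of 37 serpin, coagulation and plasma genes called (5.41%, near the 4.63% of all genes). FGB was at least 8.95-fold lower with TRIM58-WT in A549, and RBP4 had estimates of -2.81 (SE 0.18) in A549 and 1.12 (SE 0.22) in HCC827.

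Outside these lists, CAVIN3, SLC7A7 and FRMD3 also dropped below background in A549. CAVIN3, a coat protein of caveolae, read 3.56, 3.72 and 2.96 in A549 mock cells, at least 65.8-fold more than with TRIM58-WT. In HCC827 it read 3.77 and 3.88 and 5.39 and 5.07, and the difference was -9.53 (SE 0.42, adjusted p = 5.44e-05). SLC7A7, a subunit of an amino acid exchanger, was at least 58-fold lower in A549, and FRMD3 was at least 46.9-fold lower. Their differences were -9.01 (SE 0.41, adjusted p = 5.44e-05) and -8.73 (SE 0.96, adjusted p = 0.00313). IL20RB, a receptor chain for cytokines of the interleukin 20 group, went from 2.9, 3.05 and 2.72 to -1.94, -3.46 and -2.36 in A549 with a difference of -5.99 (SE 0.54, adjusted p = 0.00123). PDK4, a kinase that inhibits pyruvate dehydrogenase, had a difference of -6.2 (SE 1.14, adjusted p = 0.0239), which was lost in 8 of the 10 fits (highest adjusted p 0.0996); the other 4 were called in every fit.

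Genes of the TGF-beta and BMP pathways, which signal through SMAD proteins, moved both ways in A549. Of 30 tested, 10 fell and 7 rose there and 1 rose in HCC827. For the difference 7 were called (23.3%, against 4.63% of all genes), 6 of them below 0. The median difference was -0.0918. INHBB, the activin B chain, read 2.78, 2.88 and 2.7 in A549 mock cells and was at least 40.2-fold lower with TRIM58-WT, with -1.45 and -1.77 and -1.58 and -0.67 in HCC827. GDF15, a stress-induced cytokine of the family, went from 5.74, 6.01 and 6.92 to 1.43, 2.08 and 2.31 in A549 and read 5.22 and 5.04 and 5.02 and 5.45 in HCC827. FST, follistatin, which binds activins, was at least 1.8-fold lower in A549. Their differences were -6.03 (SE 0.43, adjusted p = 0.000415), -4.39 (SE 0.54, adjusted p = 0.00494) and -2.93 (SE 0.41, adjusted p = 0.00843), each called in all 10 fits. The ligands BMP2 and BMP4 had differences of -5.08 (SE 0.94, adjusted p = 0.0247) and -3.08 (SE 0.67, adjusted p = 0.0438), each lost in 8 fits, and BMP2 read 0.25 in A549 mock 3 against 2.07 and 2.30 in the other mock replicates. Among the genes that rose in A549 were the ligands TGFB1, by 2.6 (adjusted p = 0.0108), and TGFB2, by 2.61 (adjusted p = 0.00632), named after their values were seen, and their differences between the lines were not called (adjusted p = 0.141 for TGFB1 and 0.098 for TGFB2).

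Of 29 WNT genes tested, 6 fell and 4 rose in A549 and none was called in HCC827. For the difference 6 were called (20.7%, against 4.63% of all genes), 4 below 0 and 2 above. SP5, a transcription factor induced by WNT signals, was at least 7.79-fold lower with TRIM58-WT in A549, with a difference of -4.22 (SE 0.58, adjusted p = 0.00789). AXIN2, a feedback inhibitor, went from 0.66, 1.02 and 0.69 to -0.58, -0.65 and -0.49 in A549, was below background in HCC827, and had a difference of -1.45 (SE 0.23, adjusted p = 0.0155), lost in 4 of the 10 fits (highest adjusted p 0.0911). DKK1, a secreted inhibitor, had estimates of -1.96 (SE 0.39) in A549 and 1.05 (SE 0.48) in HCC827, and its difference of -3.01 (SE 0.61, adjusted p = 0.0356) was lost in 8 of the 10 fits (highest adjusted p 0.163). The 2 genes above 0 were WNT5A, a ligand that mostly acts without beta-catenin, and SFRP1, a secreted binder of WNT proteins. WNT5A read -5.05, -5.04 and -2.2 in A549 mock and 1.51, 1.7 and 1.66 in A549 TRIM58-WT cells, at least 21.5-fold higher. It was below background in HCC827 and passed the detection filter through A549 TRIM58-WT cells alone. SFRP1 rose from -1.08, -1.08 and -0.82 to 1.13, 0.66 and 0.83 in A549 and was below background in HCC827 too. SFRP1 had a difference of 2.04 (SE 0.28, adjusted p = 0.0077) that was called in all 10 fits, and WNT5A one of 5.67 (SE 1.06, adjusted p = 0.0249) that was lost in 8 of the 10 fits (highest adjusted p 0.11).

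In the EGFR family list, 5 of 27 genes were called (18.5%, against 4.63% of all genes), 3 below 0 and 2 above. AREG, an EGFR ligand, fell from 4.59, 4.66 and 4.56 to 1.95, 2.81 and 2.59 in A549 and read 5.39 and 5.32 and 5.36 and 5.37 in HCC827. Its HCC827 change had a 95% interval from -0.60 to 0.62, and the difference was -2.17 (SE 0.34, adjusted p = 0.0142), lost in 4 of the 10 fits (highest adjusted p 0.0739). DUSP4, a phosphatase that dampens MAP kinase signals, had estimates of -1.08 (SE 0.16) in A549 and 0.85 (SE 0.20) in HCC827, with a difference of -1.93 (SE 0.25, adjusted p = 0.00648) called in all 10 fits. The remaining gene below 0 was ERBB3. ERBB4, another receptor of the family, was above background in HCC827 mock cells alone, at least 1.91-fold higher than with TRIM58-WT, and the difference was 3.12 (SE 0.37, adjusted p = 0.00431). ERBB4 passed the detection filter through that group alone, so its p-value is no support for a response of 1 line. LRIG1, a negative regulator of these receptors, was called in neither line alone and had a difference of 3.75 (SE 0.82, adjusted p = 0.0457), lost in 7 of the 10 fits (highest adjusted p 0.181).

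**Figure D3:**
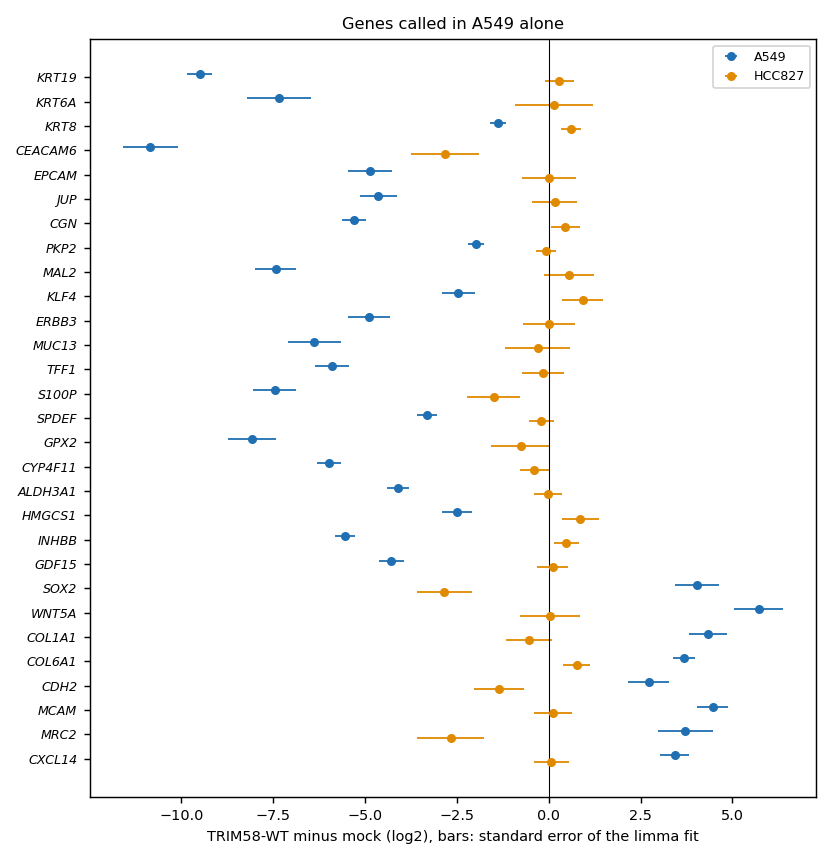
Log2 change with TRIM58-WT in A549 and HCC827 for 29 named genes called in A549 alone, grouped by role; points are fitted changes and bars the standard error of the limma fit. A549 points lie from -10.84 (CEACAM6) to 5.72 (WNT5A), while HCC827 points lie from -2.84 (SOX2) to 0.92 (KLF4).

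The 251 probes that rose in A549 alone included a few genes of matrix and mesenchymal cells. COL1A1, a chain of the main fibrillar collagen, was below background in A549 mock cells, read -1.46, 0.64 and 0.65 with TRIM58-WT and was at least 7.13-fold higher. COL6A1, a chain of microfibrillar collagen, rose from -1.25, -0.75 and -0.19 to 2.5, 3.06 and 3.26 in A549 and read -1.47 and -1.69 and -0.72 and -0.91 in HCC827. The differences were 4.87 (SE 0.82, adjusted p = 0.0176) and 2.91 (SE 0.47, adjusted p = 0.0154). Of 19 collagen genes, 3 were called for the difference (15.8%, against 4.63% of all genes). In A549 10 rose and 2 fell, and 1 rose in HCC827. The COL1A1 difference was lost in 5 of the 10 fits (highest adjusted p 0.0914) and that of COL6A1 in 4 of the 10 fits (highest adjusted p 0.0856).

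CDH2, the neural cadherin, rose from 1.22, 1.37 and 3.6 to 4.71, 4.84 and 4.79 in A549, and MRC2, a receptor for collagen uptake, from 1.13, 1.12 and 4.23 to 6.15, 5.62 and 5.86. In both genes A549 mock 3 was the highest mock replicate. In HCC827 CDH2 read -2.53 and -2.26 and -3.62 and -3.87, and MRC2 read 4.38 and 3.97 and 1.38 and 1.63. The HCC827 changes were not called, and the differences of 4.07 (SE 0.87, adjusted p = 0.0431) and 6.39 (SE 1.17, adjusted p = 0.0239) were lost in 9 of the 10 fits (highest adjusted p 0.149) and 8 of the 10 fits (highest adjusted p 0.114). Of 19 mesenchymal genes, 3 were called (15.8%, against 4.63% of all genes), CDH2 and TWIST1 above 0 and S100A4 below 0. S100A4, a calcium-binding protein of motile cells, read 7.21, 7.35 and 6.25 in A549 mock and 4.44, 4.25 and 4.34 in A549 TRIM58-WT cells. The S100A4 difference was -2.56 (SE 0.43, adjusted p = 0.0175), lost in 6 of the 10 fits (highest adjusted p 0.0824). MCAM, an adhesion molecule of endothelium and melanoma, had estimates of 4.46 (SE 0.43) in A549 and 0.12 (SE 0.52) in HCC827, with a difference of 4.34 (SE 0.67, adjusted p = 0.0128) lost in 3 of the 10 fits (highest adjusted p 0.0739).

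Some transcription factors and receptors also rose in A549 alone. SOX2, a factor of airway and stem cells, was below background in A549 mock cells, read 0.50, -1.63 and -1.5 with TRIM58-WT and was at least 4.04-fold higher. The HCC827 levels were 4.5 and 4.33 without and 1.03 and 2.12 with TRIM58-WT, a change of -2.84 (SE 0.74, adjusted p = 0.179) that was not called. The difference was 6.88 (SE 0.96, adjusted p = 0.00821) and was lost without HCC827 mock 1 (adjusted p = 0.0523). SALL2, a zinc finger factor, was at least 13.7-fold higher with TRIM58-WT in A549 and had a difference of 6.18 (SE 0.87, adjusted p = 0.00874), also lost without that replicate (adjusted p = 0.0542). PNMA8A rose from -0.00035, -0.017 and -0.61 to 2.93, 2.28 and 2.33 in A549 and read 2.15 and 2.1 and 0.37 and 0.59 in HCC827, an estimate of -1.65 (SE 0.29, adjusted p = 0.0509) just short of the threshold. Its difference was 4.37 (SE 0.38, adjusted p = 0.000933). The orphan receptor GPR162 and FPR1, a receptor for bacterial peptides, had differences of 6.24 (SE 1.03, adjusted p = 0.0168) and 6.4 (SE 1.3, adjusted p = 0.0346), lost in 4 of the 10 fits (highest adjusted p 0.0911) and 8 of the 10 fits (highest adjusted p 0.138). PID1, LYPD1 and VSX1 had differences of 3.98, 5.08 and 3.7, lost in 4, 7 and 7 fits.

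Among secreted signals of immune cells, 4 of 25 chemokines and cytokines were called (16%, against 4.63% of all genes). CCL2, which attracts monocytes, rose from 2.1, 2.41 and 3.0 to 5.02, 4.54 and 4.54 in A549, and CXCL14 was at least 3.73-fold higher. Both were below background in HCC827, and CXCL14 passed the detection filter through A549 TRIM58-WT cells alone. CXCL16 and IL18, an inflammasome product, were lower with TRIM58-WT in A549, at -1.8 (SE 0.25) and -1.66 (SE 0.19). The differences were 2.19 (SE 0.39, adjusted p = 0.0209), 3.37 (SE 0.62, adjusted p = 0.0239), -2.31 (SE 0.40, adjusted p = 0.0196) and -1.5 (SE 0.30, adjusted p = 0.0325). They were lost in 5, 7, 6 and 8 of the 10 fits.

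In the class called in HCC827 alone, 76 of the 103 probes fell and 27 rose. Of the 76, 42 were above background on no A549 array, as were 12 of the 27. For 81 of the 103, the 95% interval of the A549 change lay within 1 of 0. LDHB, the B chain of lactate dehydrogenase, went from 5.71 and 5.84 in HCC827 mock to -1.67 and -5.12 in TRIM58-WT cells, where it was above background on 1 array. In A549 the levels were 5.17, 2.02 and 5.49 in mock cells, so that mock 2 stood 3 log2 units or more below the others, and 4.85, 5.65 and 4.93 with TRIM58-WT. The HCC827 change was -9.18 (SE 1.29, adjusted p = 0.0226) and the difference 10.09 (SE 1.67, adjusted p = 0.0165), lost without HCC827 mock 1 and without HCC827 mock 2 (highest adjusted p 0.0818).

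HOPX, a homeodomain protein of alveolar type I cells, was at 1.24 and 1.39 in HCC827 mock cells and above background nowhere else. It was at least 22-fold lower with TRIM58-WT in HCC827, with a difference of 5.08 (SE 0.42, adjusted p = 0.000816). Together with SOX2 it made up the 2 of 14 lung lineage genes called (14.3%, against 4.63% of all genes). LMO3, a transcriptional cofactor, HOXD1, a homeobox factor, AMOT, which holds back the growth regulator YAP, and UNC5C, a netrin receptor, were likewise above background in HCC827 mock cells alone. They were at least 6.63-fold, at least 2.54-fold, at least 3.96-fold and at least 1.6-fold lower with TRIM58-WT. Their differences of 5.0 (SE 0.65, adjusted p = 0.00626), 3.54 (SE 0.34, adjusted p = 0.00158), 3.67 (SE 0.32, adjusted p = 0.000975) and 2.74 (SE 0.32, adjusted p = 0.00406) were called in all 10 fits. For these 5 genes the difference is that of HCC827 against A549 arrays below background. They passed the detection filter through HCC827 mock cells alone, so neither the p-values nor the 10 fits are support for a response of 1 line. The same holds wherever a gene was above background in 1 group alone. With probes above background on 1 array of every group, 8 probes were called in HCC827 alone.

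Other genes had a measured level in both lines. UCHL1, a deubiquitinase of neurons and tumours, read 8.0, 8.08 and 8.13 in A549 mock and 8.06, 7.81 and 7.77 in A549 TRIM58-WT cells, and 1.43 and 0.94 against -2.19 and -2.13 in HCC827. The A549 change had a 95% interval from -0.58 to 0.19, and the difference was 3.15 (SE 0.27, adjusted p = 0.000889). EFR3B, a membrane anchor of a lipid kinase, read 1.72, 1.87 and 2.31 and 2.27, 2.22 and 2.29 in A549 and fell from 2.28 and 2.12 to -0.87 and -0.66 in HCC827, with a difference of 3.26 (SE 0.28, adjusted p = 0.000958). Both were called in all 10 fits. PEG10, a gene of retrotransposon origin, fell from 5.01 and 4.62 to 2.72 and 2.53 in HCC827 and had a difference of 2.68 (SE 0.44, adjusted p = 0.016), lost in 3 of the 10 fits (highest adjusted p 0.0907). KRT4, a keratin of stratified epithelium, fell from 4.28 and 4.14 to -0.74 and 0.058 in HCC827 and was above background in A549 on 3 mock arrays, so of the keratin chains called it was the one with a difference above 0, at 3.87 (SE 0.56, adjusted p = 0.00969). It was lost without HCC827 mock 1 (adjusted p = 0.0591). RASSF10, a Ras-association protein, had a difference of 3.81 (SE 0.74, adjusted p = 0.0296), lost in 6 of the 10 fits (highest adjusted p 0.125).

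HLA-DRB1, a class II antigen-presenting chain, fell from 1.24 and 1.2 to -1.24 and -1.02 in HCC827, with an estimate of 0.14 (SE 0.19) in A549, a difference of 2.49 (SE 0.30, adjusted p = 0.00431). HLA-DRB genes are close copies, so its probe and that of HLA-DRB4 may share signal. HLA-DRB1 was the only call (5%, near the 4.63% of all genes) among the 20 genes tested of the HLA and presentation list, which does not hold HLA-DRB4. TNFRSF10C, a decoy receptor for the death ligand TRAIL, fell in HCC827 at -1.65 (SE 0.25) and was below background in A549, with a difference of 1.88 (SE 0.32, adjusted p = 0.0196) lost in 6 of the 10 fits (highest adjusted p 0.0997). PLEKHS1 and KRABD1 had differences of 5.66 and 4.7 and were below background in A549.

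Of the genes that rose in HCC827 alone, FYN, a Src family kinase, went from 0.13 and 0.26 to 1.83 and 1.6, a change of 1.52 (SE 0.20, adjusted p = 0.0162). In A549 it read -1.15, -0.98 and -1.15 and -1.84, -1.7 and -1.42, lower with TRIM58-WT by an amount that was not called (adjusted p = 0.0558), and the difference was -2.08 (SE 0.25, adjusted p = 0.00463). EPDR1, a secreted lysosome-related protein, was at 3.75, 3.83 and 3.74 in A549 mock cells. In HCC827 it went from -5.07 and -5.08 to -2.5 and -3.03. The HCC827 mock values lay among those of undetected endothelial markers, so this step is not a measured size. ERLIN2, an endoplasmic reticulum protein, was at least 2.1-fold higher in HCC827. COL13A1, a transmembrane collagen, was at least 3.68-fold higher in HCC827 and below background in A549. It passed the detection filter through HCC827 TRIM58-WT cells alone, so neither its p-value nor its fits are support for a response of 1 line. The differences were -2.44 (SE 0.33, adjusted p = 0.00739), -2.55 (SE 0.30, adjusted p = 0.00418) and -2.02 (SE 0.25, adjusted p = 0.00533). These 4 were called in each fit without 1 A549 replicate. Under another limma alternative EPDR1, ERLIN2 and COL13A1 lost the call, with highest adjusted p-values of 0.187, 0.28 and 0.269. FYN kept its call in every limma alternative (highest adjusted p 0.0368).

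SMARCA2, an ATPase of the SWI/SNF complex of which SMARCD3 is a subunit, was at least 2.05-fold higher with TRIM58-WT in HCC827, with an estimate of -0.061 (SE 0.28) in A549. Its difference was -2.52 (SE 0.45, adjusted p = 0.0215), lost in 7 of the 10 fits (highest adjusted p 0.107). IGFBP6, which binds insulin-like growth factor 2, went from -0.48 and 0.45 to 2.29 and 1.74, and MVB12B, of the endosomal sorting machinery, from -1.35 and -1.71 to 0.66 and 0.82. PCGF5, a Polycomb subunit, and TNFAIP2 changed by 1.42 (SE 0.21) and 1.21 (SE 0.18) in HCC827. Their 4 differences were -2.51, -1.78, -1.81 and -1.53, lost in 2, 2, 1 and 3 fits. OSBPL6, a lipid transfer protein, and ABTB3 had differences of -2.74 and -1.33, lost in 4 and 8 fits.

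**Figure D4:**
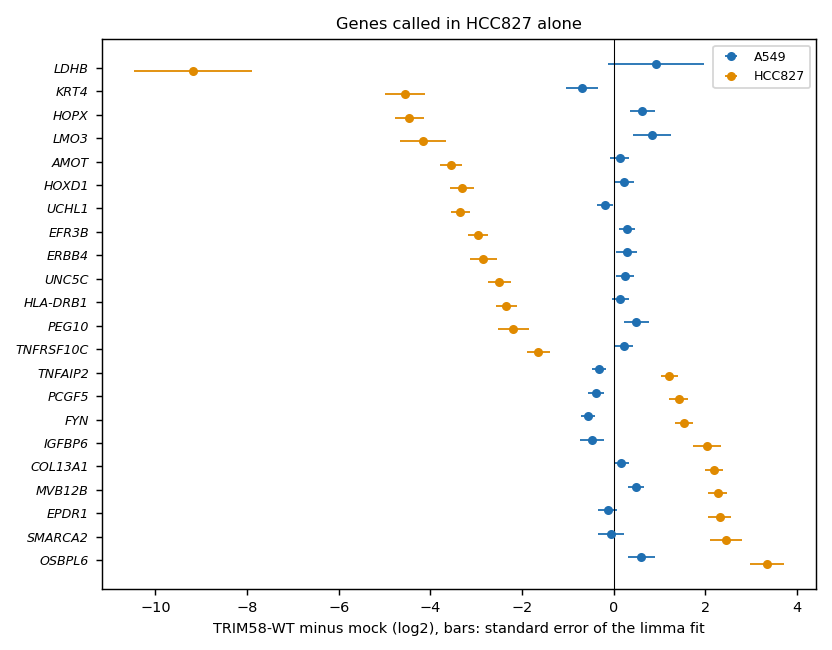
Log2 change with TRIM58-WT in A549 and HCC827 for 22 named genes called in HCC827 alone; points are fitted changes and bars the standard error of the limma fit. HCC827 points lie from -9.18 (LDHB) to 3.34 (OSBPL6), and A549 points from -0.69 (KRT4) to 0.92 (LDHB).

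In 71 probes the difference was called although neither change was. The 2 estimates had opposite signs in all of them, which largely follows from how the class is defined. SEMA3A, a secreted axon guidance signal, and SHOX2, a homeobox factor, had fitted differences of 4.02 (SE 0.65, adjusted p = 0.0152) and 4.03 (SE 0.68, adjusted p = 0.0181). Both were above background in HCC827 mock but not in HCC827 TRIM58-WT cells, with bounds of at least 6.42-fold and at least 3.68-fold, and the HCC827 changes missed the threshold (adjusted p = 0.0601 for SEMA3A and 0.0583 for SHOX2). EDNRA, an endothelin receptor, and DTX3 were also above background in HCC827 mock cells alone, with differences of 3.48 and 3.42. Among those detected in all groups, SBK1, HBQ1, MLF1, GALNT10 and PRR36 had differences from 2.08 to 2.93, and EFNA4, an ephrin, one of 1.11. Below 0 were ERICH5 at -2.25, TNFRSF6B, a decoy receptor for the FAS ligand, at -2.12, PRAG1 at -2.01, RHOF at -1.97, MEAK7 at -1.89 and ARHGEF28 at -1.53. None of the 18 named probes of this class was called in all 10 fits, and 15 of the 71 were called with the averaged replicates.

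Only LAYN and OSGIN2 were called in both lines in the same direction with a different size. LAYN, a receptor for hyaluronan, was at least 14.2-fold higher with TRIM58-WT in A549. In HCC827 it rose by 2.57 (SE 0.32) and was above background on 1 TRIM58-WT array, and the difference was 3.36 (SE 0.41, adjusted p = 0.00492). OSGIN2 fell in both lines, with changes of -0.80 in A549 and -2.02 in HCC827, with a difference of 1.22 (SE 0.26, adjusted p = 0.0406) lost in 8 of the 10 fits (highest adjusted p 0.172).

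Genes of the cell cycle, of microtubules and of the protein readouts followed in these transfectants did not pass the test of the difference. Of 37 DNA replication genes, 37 genes of mitosis and 20 tubulin and dynein genes, none was called by limma (4.63% of all genes) and none by a Welch test, which called 37 of all 20641 probes and so could call few genes of any list. At an unadjusted p under 0.05 the limma counts were 1, 1 and 1, and the median differences were -0.12, 0.097 and 0.0089. CDKN1A, the p53 target that encodes the cell cycle inhibitor p21, read -0.35, -0.16 and 0.038 in A549 mock and -0.69, -1.27 and -1.01 in A549 TRIM58-WT cells and was below background in HCC827. Its difference was -1.42 (SE 0.63, adjusted p = 0.277). These RNA values were lower with TRIM58-WT in A549. For p21 protein, another measure, the study reports pronounced levels in TRIM58-WT cells alone. Of 34 p53 target genes, 3 were called (8.82%, against 4.63% of all genes): GDF15 and ABCA12, a lipid transporter with a difference of -1.6, below 0, and TNFRSF10C above. PARP1, a DNA repair enzyme, had differences of 0.19 (SE 0.20, adjusted p = 0.657) and 0.43 (SE 0.48, adjusted p = 0.678) at its 2 probes. The study followed cleavage of the PARP protein, which RNA levels do not measure.

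Interferon-stimulated genes depended on 1 array. Of 42 tested, only OAS1, a sensor of double-stranded RNA, was called (2.38%), with 3.22, 3.47 and 1.11 in A549 mock and -1.69, -3.19 and -2.79 in A549 TRIM58-WT cells and a difference of -5.77 (SE 1.0, adjusted p = 0.0198) lost in 7 of the 10 fits (highest adjusted p 0.0833). The median level of the 42 genes was 1.98 and 2.24 in A549 mock 1 and 2 but -1.59 in A549 mock 3, within the range of -1.96 to -0.48 in the TRIM58-WT replicates. The HCC827 arrays gave medians of 1.09 and 0.89 without TRIM58-WT and 1.25 and 1.49 with it. Without A549 mock 3, 32 of the 42 were called (12% of all genes), and the median difference went from -1.92 to -3.13. The part of that array in the result was not tested beyond this.

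Positions along the genome were also compared, with 1 probe a gene. Chromosomes 5 and 8 had the lowest medians, both in A549. The median A549 change was -0.45 over the 574 genes of chromosome 5 and -0.46 over the 439 genes of chromosome 8, against 0.039 over all genes. The medians of the 3 TRIM58-WT replicates, relative to the mock mean, were -0.49, -0.42 and -0.40 on chromosome 5 and -0.50, -0.46 and -0.43 on chromosome 8, while the mock replicates lay between -0.037 and 0.027. In HCC827 the medians were -0.015 and -0.0044. Of the genes called for the difference on these chromosomes, 30 of 38 and 26 of 34 were below 0, against 321 of 595 over all genes called. The named genes that fell in A549 include CD14, HMGCS1, STARD4 and FST on chromosome 5 and MAL2, DLC1 and DUSP4 on chromosome 8, while CXCL14 on chromosome 5 and SFRP1 on chromosome 8 rose. Chromosome 19 was higher in A549 at 0.25, with 32 of 52 called genes above 0, and its medians followed the array as well, from -0.15 to 0.20 in the mock replicates. In HCC827, chromosome 7 was lowest, at -0.16. DNA copy number was not measured on these arrays, and its part in these medians was not tested. With the median of each chromosome subtracted, a step added after these values were seen, 791 probes were called and 691 of the 796 kept their call.

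**Figure D5:**
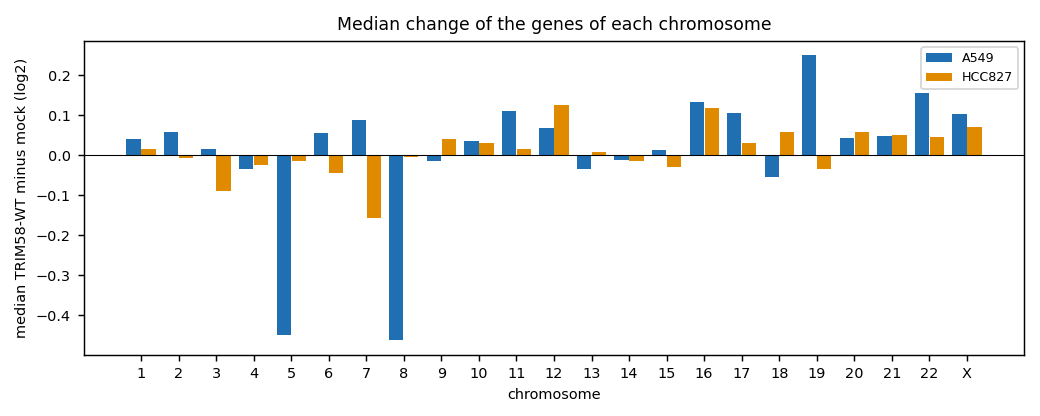
Median log2 change with TRIM58-WT over the genes of each chromosome, in A549 and in HCC827; bars start at 0. In A549 the bars of chromosomes 5 and 8 reach -0.45 and -0.46, while all other bars of both lines lie between -0.16 and 0.25.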

How the data were processed

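RNA of 11 samples was labelled with Cy3 and hybridised to Agilent 1-colour arrays. The authors extracted the deposited spot intensity with Agilent Feature Extraction (version 10.7 per the labels, 11.5.1.1 per the file headers), which subtracts background within each array. Their deposited table of log2 values was used as an alternative. Its array medians lay between -0.125 and 0.46, and its differences between arrays followed the values used here with slopes of 0.994 to 1, so its scale and direction are log2 and the same, whereas the baseline subtracted from each probe is not stated.

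From the processed intensity, control and outlier spots were left out, spots of a probe were averaged, values were put on the log2 scale, and every array was centred on its 75th percentile. Detection of a probe on an array required over 0.5 of its spots to carry the extraction software's mark for signals well above background. The 4 groups entered 1 limma fit (lmFit, eBayes; R 4.3.3, limma 3.58.1 and the package data.table in version 1.17.8) of 10 replicates, A549 mock arrays 1-1 and 1-2 averaged, with Benjamini-Hochberg adjustment over all probes tested. The number of arrays limits the precision. Replicate numbers do not pair the samples: deviations of same-numbered A549 replicates correlated at 0.433, -0.38 and 0.452, and those of HCC827 at 0.0717. Bounds ("at least N-fold") set the brighter group against the dimmest signal that was above background on each array.

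Of the probes, 28302 carried a RefSeq accession and 27241 were named through the RefSeq annotation of GRCh38.p14, which also gave chromosomes and promoters. Genes named were, among called probes with 1 symbol, the 6 largest differences of each class and sign with an array above background in all 4 groups, the 4 largest with a group lacking any such array, the 5 largest called in each list, and TRIM58, CDKN1A and PARP1. For lists, 1 probe a gene was used, the brightest. Some of these genes are not reported here. The members and lists were chosen with earlier results of these data known. Lists covered epithelial, keratin, mucin, mesenchymal, matrix, integrin, protease, lung, chemokine, growth factor pathway, interferon, antigen presentation, detoxification, lipid, hypoxia, stress, cell cycle, p53, metallothionein, YAP, guidance, HOX, cancer-testis, plasma protein and tubulin genes, and markers of other cell types. Alternatives were other normalizations, background corrections, filters, blocks, uses of arrays, a Welch test and each replicate left out. Figures used Python 3.11.15 and matplotlib 3.10.9.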

Additional observations from a re-analysis of the deposited data

Results flagged for a closer look

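The test of the difference between lines itself called 796 probes, which is the result described above. Among the genes called in both lines in opposite directions, the differences (A549 change minus HCC827 change) were -6.07 for CCK, -5.11 for TFCP2L1, -4.98 for CELF2, -4.13 for PTGS1, -3.78 for ITGB4 and -1.77 for PLAU. They were 2.81 for HLA-DRB4, 3.13 for CTSC, 3.14 for SMARCD3, 4.24 for TCEA3, 4.37 for ARHGEF25, 4.47 for TWIST1 and 4.54 for GNB4. ITGB4, PLAU, CTSC and SMARCD3 were above background in all 4 groups. The other 9 had at least 1 group below background, so their values are fitted differences and not measured sizes, and all 9 were smaller by more than 1.5 times after normexp correction. Groups of 2 or 3 replicates are too small to test for single samples that stand far from the rest.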

How the results depend on the processing

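The differences of the named genes kept their sign under every alternative run, each of which used arrays that also chose the genes. After normexp correction 93 of 137 were smaller by more than 1.5 times, 65 of the 71 with a group below background and 28 of the 66 others. Over all alternatives, 825 values of named genes no longer passed the test against 2851 that did. Some genes that kept the call without any 1 A549 replicate lost it under another limma alternative. The highest adjusted p was 0.296 for UNC5C, 0.258 for ERBB4, 0.207 for FST, 0.146 for HOXD1 and 0.104 for AMOT. Of the 796 calls, 422 were kept after normexp correction, which made 738 calls in all, 669 after quantile normalization (888), 787 with outlier spots kept (792) and 790 with the deposited log2 table (802). Dim probes limit the rest, since a group below background holds only a bound, and 2 or 3 replicates decide each mean.

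The counts that moved by more than 1.5 times follow. Shifting arrays by their medians gave 527 calls of the difference, 5 opposite, 53 in HCC827 alone, 1 of the same sign, 30 in neither line and 71 HCC827 changes. With no filter there were 452, with 3 opposite, 350 in A549 alone, 50 in HCC827 alone, 1 of the same sign and 65 HCC827 changes. With probes above background on every array there were 398, with 5 opposite, 318 in A549 alone, 25 in HCC827 alone, 0 of the same sign and 46 HCC827 changes; with those above background on 1 array of every group, 319, 0, 261, 8, 0 and 11. Replicate numbers do not pair the samples, and a replicate block gave 768 calls, of which 641 were among the 796, with 7 opposite, 59 in HCC827 alone and 81 HCC827 changes. With the slide as a block and the 4 A549 mock arrays kept separate there were 1688, with 52 opposite, 1291 in A549 alone, 162 in HCC827 alone, 4 of the same sign, 179 in neither line, 4480 A549 changes and 310 HCC827 changes. Slide 1 alone gave 3055, 132, 2341, 240, 40, 302, 4596 and 643 for the same quantities. Mock arrays 1-1 and 1-2 kept separate, which counts 1 sample as 2, gave 1359, with 35 opposite, 1047 in A549 alone, 4 of the same sign, 137 in neither line and 4032 A549 changes. Mock array 1-1 alone left 1 of the same sign.

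The Welch test, which the study's general statistics name but not for the arrays, called 37 probes after adjustment (3088 before it), with 0 opposite, 10 in A549 alone, 0 in HCC827 alone, 0 of the same sign, 27 in neither line, 31 A549 changes and 0 HCC827 changes. Requiring an absolute log2 value of 1 left 1 of the same sign, 133 in neither line and 1685 A549 changes. A549 fitted alone gave 1164 changes. In an alternative chosen after seeing the data, TRIM58-WT 2 and 3 of A549 averaged, there were 426 calls, with 4 opposite, 324 in A549 alone, 51 in HCC827 alone, 1 of the same sign, 46 in neither line, 1367 A549 changes and 71 HCC827 changes. Centring each chromosome, also chosen after seeing the data, left 1 of the same sign.

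Leaving out 1 replicate at a time gave 208 (without HCC827 mock 1) to 2087 calls (without A549 mock 3), 2 to 45 opposite, 164 to 1692 in A549 alone, 22 to 155 in HCC827 alone, 0 to 18 of the same sign, 20 to 201 in neither line, 1158 to 4253 A549 changes and 25 to 319 HCC827 changes. The count was 1483 without A549 TRIM58-WT 1, 429 and 398 without TRIM58-WT 2 and 3, 348 and 396 without A549 mock 1 and 2, 403 and 388 without HCC827 TRIM58-WT 1 and 2, and 345 without HCC827 mock 2. The cause of these shifts was not tested.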

Other observations

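Other lists that were counted are given here as values. The shares called were 8.7% of other matrix genes, 16.7% of integrins, 3.45% of matrix proteases and inhibitors and 13.9% of guidance genes. They were 5.88% for amino acid synthesis and the unfolded protein response, 4.55% for HOX and 9.52% for YAP and TEAD target genes. Over all genes the share was 4.63%, so the protease, amino acid and HOX lists were near it. Of 23 other matrix genes, 2 were called, HAPLN3, which links hyaluronan, at 2.69 (SE 0.50) and LAMB3, a laminin chain, at -2.52 (SE 0.47), lost in 6 and 8 of the 10 fits without 1 replicate; of 12 integrins, ITGB4 and ITGA6; and of 29 matrix proteases and inhibitors, PLAU. Of 36 guidance genes, 5 were called, among them EFNB3, an ephrin, at 2.39 (SE 0.47) and NTN4, a netrin, at -2.51 (SE 0.39), lost in 7 and 3 fits. Of 34 genes of amino acid synthesis and the unfolded protein response, 2 were called, DDIT3, a stress-induced transcription factor, at -1.75 (SE 0.26) and SLC6A9, a glycine transporter, at -1.86 (SE 0.23), lost in 1 fit and in 0. ANGPTL4, an inhibitor of lipoprotein lipase, at -1.75 (SE 0.35) was the only call among 32 hypoxia and glycolysis genes (3.12%, against 4.63% of all genes) and was lost in 7 of the 10 fits (highest adjusted p 0.161). HOXD1 was the only one among 22 HOX genes. Of 21 YAP and TEAD target genes, 2 were called, AMOT and DLC1, at -3.49 (SE 0.29). Among 9 cancer-testis genes none was called by limma or by the Welch test, and 3 had an unadjusted p under 0.05 by limma.

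Of 9 metallothioneins, which bind zinc and copper, none was called for the difference by limma or by the Welch test, 6 had an unadjusted p under 0.05 by limma, and 4 rose in A549. Their median level was 4.69, 4.29 and 6 in the A549 mock replicates, 6.55, 7 and 6.89 in the TRIM58-WT replicates, 6.04 and 6.09 in HCC827 mock and 5.7 and 5.9 in HCC827 TRIM58-WT cells. Without A549 mock 3, 5 were called, when 12% of all genes were. Metallothioneins are close copies, so their probes may share signal. Of the leukocyte markers, CD14, at -3.27 (SE 0.37), and NCAM1, at -3.85 (SE 0.82), were called and fell in A549, and the call of NCAM1 was lost in 9 of the 10 fits (highest adjusted p 0.163) and with A549 TRIM58-WT 2 and 3 averaged (adjusted p = 0.0908). NCAM1 was above background in A549 mock cells alone and passed the detection filter through them. In all, 4 of the 9 markers were above background in A549 mock cells and 3 in A549 TRIM58-WT cells. Their summed signal, in units of the 75th percentile of the array, ranged from 4.28 to 6.15 in A549 mock cells and from 1.96 to 2.38 with TRIM58-WT, and from 4.77 to 4.78 and from 6.5 to 7.44 in HCC827. CD3E, MS4A1 and ITGAM were above background on none.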
